A study of Mus musculus with 6 samples.

Results

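Atf4, the transcription factor at the centre of the integrated stress response, was examined with 5 genes of its stress axis (Ddit3, Ddit4, Chac1, Asns and Sesn2) and with the 3 Tribbles genes (Trib1, Trib2 and Trib3). The members were every probe set that the array's gene table assigns to exactly 1 of these 9 symbols, each kept separate, which gave 18 of the 45037 probe sets tested and 9 of 18193 genes. The genes were chosen by their EBF against control differences on these same 6 arrays, so those differences are given below as a description of the members, without a test.

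Mouse pro-B cells of Pax5-/- genotype were compared in 2 groups of 3 arrays. In the EBF group the cells had received the Mig-EBF retrovirus, which carries the B cell transcription factor EBF, and in the control group the MigR1 retrovirus. Cells of both groups lacked Pax5, were grown with 5 ng/ml IL-7 on ST2 cells (stromal cells from bone marrow), were infected by spinning, and were sorted for GFP after 2 days. The labels number the arrays 1 to 3 within each group and do not state that they are separate cultures, so the p-values below rest on a spread between arrays that may be technical.

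The integrated stress response is a pathway in which kinases that sense amino acid shortage, misfolded protein in the endoplasmic reticulum, double-stranded RNA or haem shortage phosphorylate the translation factor eIF2. Most protein synthesis then slows while translation of the Atf4 mRNA increases, and ATF4 protein switches on genes for amino acid synthesis and uptake, tRNA charging and, under lasting stress, cell death. Because ATF4 is controlled mainly at translation, its mRNA level need not follow its activity. Tribbles proteins are pseudokinases. Trib1 and Trib2 bring the ubiquitin ligase COP1 to substrates such as C/EBP alpha, and Trib3 is itself an ATF4 target.

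Each probe set has 1 linear-scale intensity per array, analysed as log2(intensity + 32), so that differences of dim probe sets are understated. Array medians lay between 439 and 445 in the EBF group and between 424 and 451 in the control group. The 27 probe sets for Bacillus transcripts, which serve as a level for absent signal, had medians of 97.6 to 108 in EBF arrays and 102 to 108 in control arrays. The brightest Ebf1 probe set averaged 4537 ± 394 in EBF arrays and 4169 ± 127 in control arrays (SD, n = 3 each), and it is not known whether these probes match the viral insert. Of 8 early B lineage markers, among them Vpreb1, Igll1, Cd79b and Il7r, the summed intensity was 59500 to 60580 in EBF arrays and 50110 to 51730 in control arrays, most of it from Vpreb1 and Igll1. The 1 early B marker to pass the test was Dntt, the terminal transferase, which was lower: it read 1518, 1609 and 1514 in EBF arrays, against 2570, 2199 and 2879 in control arrays (log2 -0.70, limma adjusted p = 0.0226). Cd79a had a difference of -0.27 (limma adjusted p = 0.253). The summed intensity of 8 stromal markers was 13300 to 19770 in EBF arrays and 14840 to 25840 in control arrays, and the collagen genes Col1a1 and Col1a2 were bright on every array. The summed intensity of 8 myeloid markers was 3716 to 3926 in EBF and 3857 to 4082 in control arrays, with Lyz2, the macrophage lysozyme, lower in EBF arrays (-0.48, limma adjusted p = 0.0169). Lyz2 was the 1 myeloid marker to pass, and 5 of the 8 had differences above 0 (list median 0.055). For the 7 measured T and NK markers the sum was 3850 to 4462 in EBF and 3804 to 4357 in control arrays. The early B sums did not overlap between groups and the other sums did, and whether marker levels had a part in the results on stress genes was not tested.

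Asns, which encodes the asparagine synthetase, had the largest difference of any member. Its promoter is printed here with those of Trib3 and Chac1, because these were the 3 members whose window held the composite element that ATF4 binds with a C/EBP protein. The windows run from 250 bases before to 50 bases after the gene start and are RefSeq sequences of build GRCm38.p6, given 5′ to 3′ on the strand of the gene, with the 8 bases that match TGATGNAA on either strand in capitals. They cover chr6:7693160-7693459 on the minus strand for Asns, chr2:152344011-152344310 on the minus strand for Trib3 and chr2:119350992-119351291 on the plus strand for Chac1.
Asns: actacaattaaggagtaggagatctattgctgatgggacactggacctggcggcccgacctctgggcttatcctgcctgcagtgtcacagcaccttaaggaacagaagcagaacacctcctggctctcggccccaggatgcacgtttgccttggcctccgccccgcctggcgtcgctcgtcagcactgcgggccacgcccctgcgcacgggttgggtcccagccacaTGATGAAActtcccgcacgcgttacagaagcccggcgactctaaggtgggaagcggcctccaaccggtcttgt
Trib3: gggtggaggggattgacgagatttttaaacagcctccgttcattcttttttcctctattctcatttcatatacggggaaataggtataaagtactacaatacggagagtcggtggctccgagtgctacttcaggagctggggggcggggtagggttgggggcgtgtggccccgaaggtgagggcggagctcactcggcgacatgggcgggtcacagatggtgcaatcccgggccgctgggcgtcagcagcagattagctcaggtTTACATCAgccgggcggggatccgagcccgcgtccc
Chac1: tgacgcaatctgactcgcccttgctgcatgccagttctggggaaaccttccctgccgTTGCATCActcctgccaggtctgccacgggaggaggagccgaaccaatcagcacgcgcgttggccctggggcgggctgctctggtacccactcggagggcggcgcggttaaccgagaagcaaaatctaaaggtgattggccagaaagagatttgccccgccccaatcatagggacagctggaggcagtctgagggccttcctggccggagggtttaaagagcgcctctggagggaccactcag
The match lay 23 to 16 bases before the start of Asns (-23 to -16), 15 to 22 bases after that of Trib3, and 193 to 186 bases before that of Chac1 (-193 to -186). TGATGNAA, searched on both strands, was in 1304 of all 32851 promoter windows of this length, or 3.97%. A match of letters is a description and not evidence of binding.

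**Figure D1:**
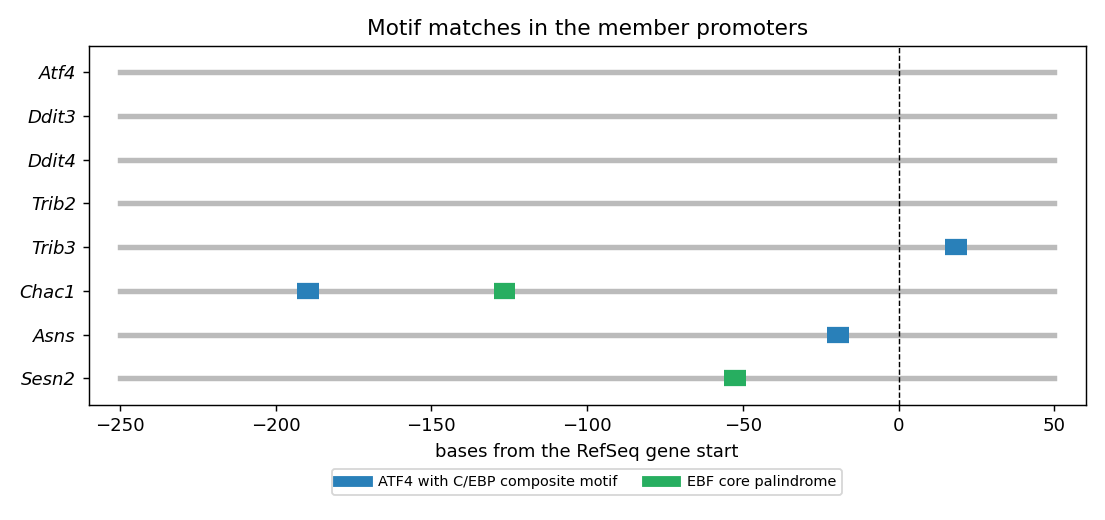
Positions of motif matches in the promoter windows of 8 member genes, in bases from the RefSeq gene start (dashed line at 0), each grey bar running from -250 to 50. Blue marks TGATGNAA, present in Trib3, Chac1 and Asns, and green marks CCCNNGGG, present in Chac1 and Sesn2.

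The windows of Atf4, Ddit3, Ddit4, Trib2 and Sesn2 held no match to TGATGNAA, and of the 9 members 8 had a window in the table, all but Trib1. CCCNNGGG, the palindromic core of the EBF motif, reads the same on both strands and did not overlap the other matches. It occurred in the Chac1 window (-130 to -123) and in the Sesn2 window (-56 to -49), and in 13.7% of all windows.

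Asns was brighter on every EBF array than on any control array at both of its probe sets. The brighter one, 1451095_at, read 5461, 5523 and 6315 in the EBF arrays and 3767, 3597 and 4489 in the control arrays, with means of 5766 ± 476 and 3951 ± 473 (SD, n = 3 each). The other, 1433966_x_at, read 3575, 3876 and 4281 in the EBF arrays and 2279, 1984 and 2723 in the controls. The lowest EBF array of each probe set was thus above the highest control array. On the log2(intensity + 32) scale the differences were 0.55 ± 0.10 and 0.75 ± 0.12 (limma SE), ratios of 1.46 and 1.68. In both groups array 3 was the brightest at both probe sets.

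Trib3, the stress-induced Tribbles gene, showed the same separation of groups. Its probe set 1456225_x_at read 2013, 2074 and 1688 in the EBF arrays, against 1395, 1164 and 1234 in the control arrays, a log2 difference of 0.59 ± 0.10 (SE) and a ratio of 1.51. Its probe set 1426065_a_at read 1782, 1734 and 1467 in the EBF arrays, against 1307, 1347 and 1197 in the controls, with 0.36 ± 0.09 and 1.28. Array EBF 3 was the lowest of its group at both Trib3 probe sets, whereas it was the highest of its group at both Asns probe sets. An _x_at probe set contains probes that can also match other transcripts, and for Asns and for Trib3 it was the _x_at probe set that gave the larger difference.

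**Figure D2:**
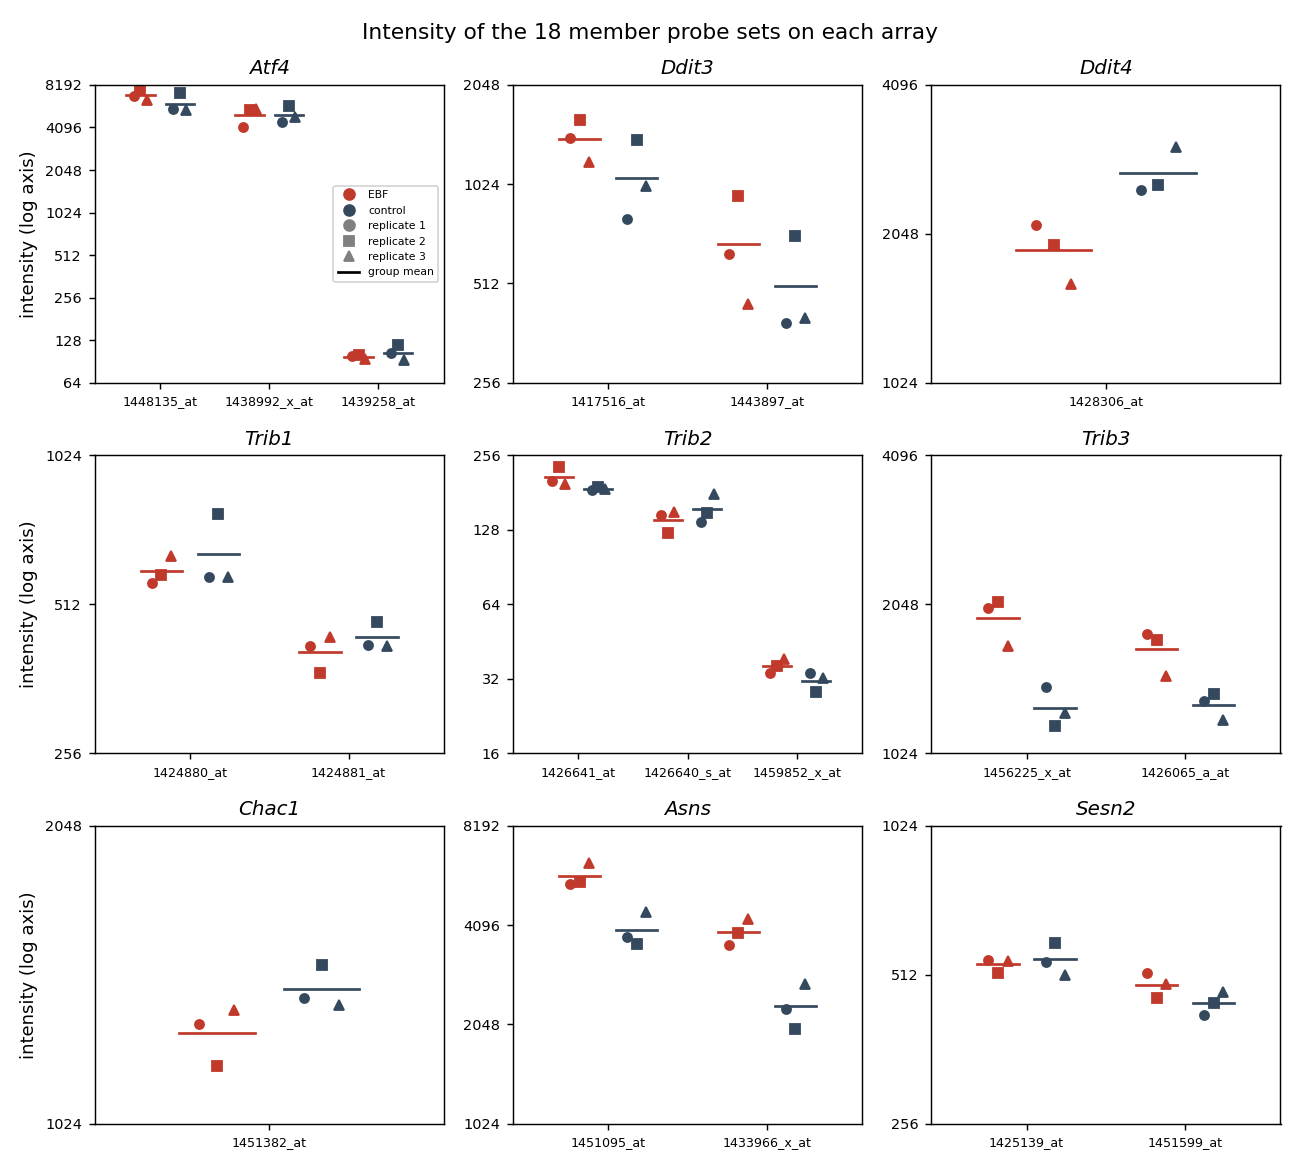
Intensity (log axis) of the 18 member probe sets on the 3 EBF arrays (red, left of each pair) and the 3 control arrays (dark, right), with marker shape for the replicate number and a line for the group mean. EBF arrays lie above control arrays at both Asns and both Trib3 probe sets and below them for Ddit4, while Trib1 and Sesn2 overlap.

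Atf4 itself was bright and its probe sets did not agree on a difference. The brightest, 1448135_at, read 6876, 7501 and 6409 in the EBF arrays and 5530, 7144 and 5468 in the control arrays, a log2 difference of 0.20 ± 0.12 (SE). The groups overlapped through control 2, which was above EBF 1 and EBF 3. Probe set 1438992_x_at had 5048 ± 793 in EBF and 5057 ± 699 in control arrays (SD, n = 3 each), a difference of -0.01 ± 0.14. The last, 1439258_at, read 97.8 ± 3.6 in EBF arrays and 104.5 ± 12.8 in control arrays, at the level of the Bacillus probe sets, so it gives no Atf4 level above background.

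Ddit3 encodes CHOP, a transcription factor of the C/EBP family that acts downstream of ATF4 and promotes cell death when stress persists. At 1417516_at it read 1411, 1605 and 1193 in EBF arrays and 805, 1390 and 1014 in control arrays, a log2 difference of 0.41 ± 0.19 (SE). At 1443897_at it read 631, 945 and 442 in EBF arrays and 389, 715 and 402 in control arrays, a difference of 0.39 ± 0.28. The groups overlapped at both, because array 2 was the highest of each group and control 2 exceeded at least 1 EBF array. Set number against number, each EBF array was above the control array of its number, by 0.79, 0.20 and 0.23 at 1417516_at and by 0.66, 0.39 and 0.13 at 1443897_at. Over the alternatives listed at the end, the differences ranged from 0.22 to 0.72 at 1417516_at and from 0.12 to 0.91 at 1443897_at. The largest came without EBF 3 and control 2 together. At both probe sets these were the lowest EBF array and the highest control array, so leaving them out had to widen the gap.

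The height of array 2 in both groups was shared by another stress gene. Ppp1r15a, whose product GADD34 guides the phosphatase that reverses eIF2 phosphorylation, read 997, 2587 and 861 in EBF arrays 1 to 3 and 1195, 2548 and 1069 in control arrays 1 to 3. Atf3, a stress-induced bZIP repressor, was high in control 2 alone, with 713, 686 and 700 in EBF arrays and 798, 1603 and 760 in control arrays. Over all arrays its difference was -0.48 ± 0.24, and neither gene passed the test between groups (limma adjusted p = 0.851 for Ppp1r15a and 0.315 for Atf3). Both genes were named for this pattern after their values were seen.

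**Figure D3:**
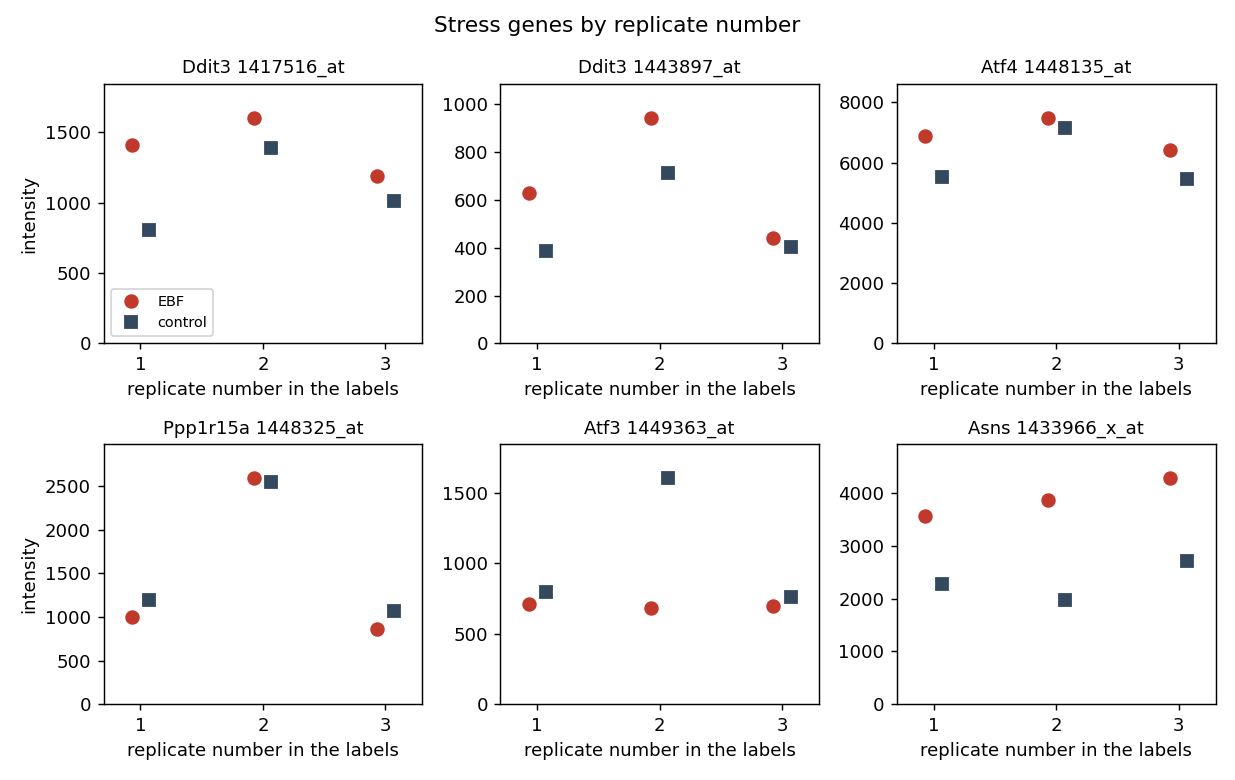
Intensity of 6 probe sets against the replicate number in the labels, EBF arrays as red circles (left) and control arrays as dark squares (right). Ppp1r15a and both Ddit3 probe sets are highest in array 2 of each group, and Atf3 reaches 1603 in control 2 alone. Both Ddit3 probe sets, Atf4 and Asns are higher in the EBF array of every number.

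Ddit4 was the member with the largest difference in the other direction. It encodes REDD1, a stress-induced inhibitor of the growth kinase complex mTORC1. Its probe set 1428306_at read 2132, 1942 and 1620 in the EBF arrays, against 2509, 2571 and 3064 in the control arrays, means of 1898 ± 258 and 2715 ± 304 (SD, n = 3 each). All EBF arrays lay below all control arrays, with a log2 difference of -0.51 ± 0.12 (SE) and a ratio, control over EBF, of 1.43. The gap was unequal between numbers, at -0.23, -0.40 and -0.91 for numbers 1, 2 and 3. Bulk intensities cannot tell fewer cells with a transcript from less of it per cell, here or for any other member.

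Chac1, which encodes an enzyme that degrades glutathione and is a strongly induced ATF4 target in other settings, was slightly lower in EBF arrays. It read 1291, 1172 and 1333 there, against 1373, 1480 and 1350 in the control arrays, so that the groups did not overlap but EBF 3 and control 3 were only 0.02 apart on the log2 scale (-0.02). The mean difference was -0.14 ± 0.08 (SE). Sesn2, which encodes a leucine sensor that restrains mTORC1, had log2 differences of -0.03 ± 0.08 at 1425139_at and 0.12 ± 0.08 at 1451599_at, with overlapping groups at both. Its means were 537 ± 17.2 in EBF and 550.1 ± 41.7 in control arrays at the first, and 489 ± 28.7 in EBF and 449 ± 24.1 in control arrays at the second.

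The other Tribbles genes did not show the difference seen for Trib3. Trib1 read 564, 586 and 640 in EBF arrays and 581, 780 and 582 in control arrays at 1424880_at, where control 2 stood above all other arrays, a log2 difference of -0.10 ± 0.12 (SE). At 1424881_at it had -0.09 ± 0.09, and the groups overlapped at both. Trib2 was dim: at 1426641_at it read 201, 229 and 195 in EBF arrays, against 186, 190 and 188 in control arrays (0.13 ± 0.08), and these did not overlap. At 1426640_s_at, by contrast, Trib2 had -0.12 ± 0.10 with overlapping groups, and 1459852_x_at stayed at 36.1 ± 2.5 in EBF and 31.5 ± 2.8 in control arrays (SD, n = 3 each), below the Bacillus probe sets. All Trib2 values were below the highest Bacillus probe set of every array (324 to 410). No direction can be given for Trib2 from probe sets that differ in sign. The difference between Trib3 and its relatives was not tested.

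**Figure D4:**
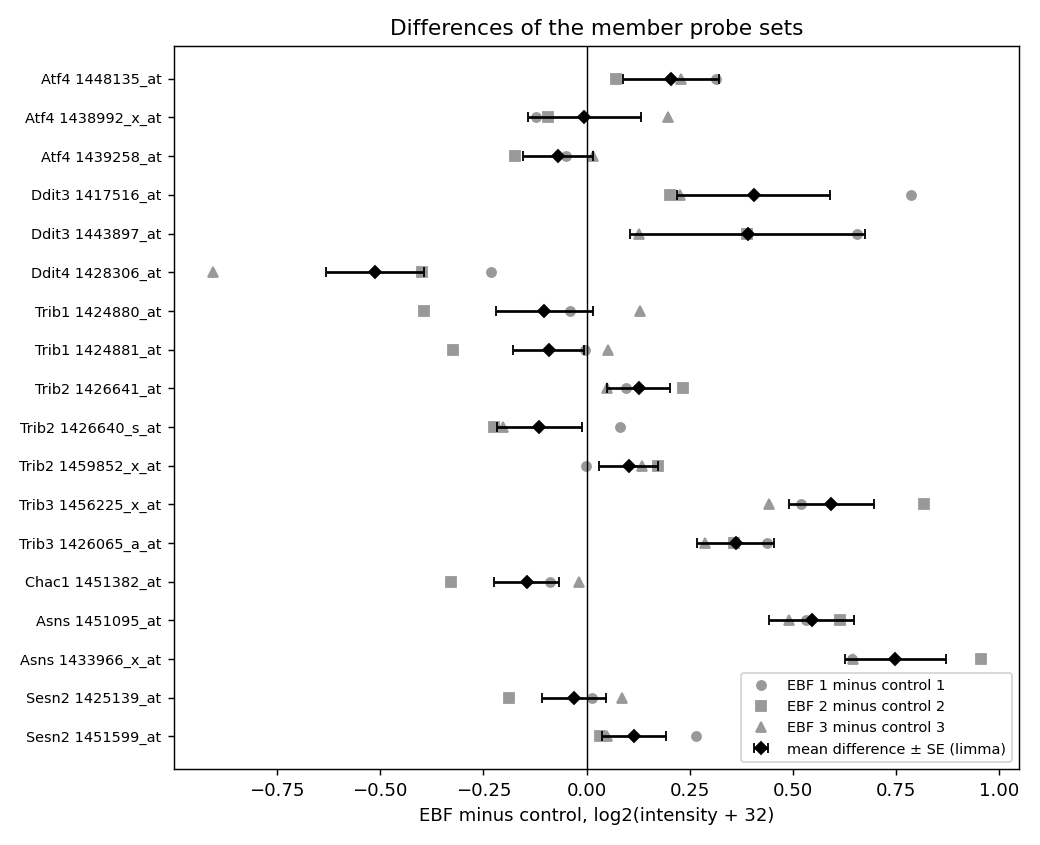
EBF minus control on the log2(intensity + 32) scale for the 18 member probe sets: diamonds with bars are limma means ± SE, and grey symbols the difference between arrays of equal number. Asns, Trib3 and Ddit3 are positive and Ddit4 and Chac1 negative for every number. Atf4, Trib1, Trib2 and Sesn2 have probe sets or numbers on both sides of 0.

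Groups did not overlap at 7 of the 18 member probe sets, with EBF higher at 5, where 15.5% of all probe sets were, and lower at 2, where 7.67% were. The median difference was 0.109 over the 18 and 0.025 over all probe sets. Since these genes were chosen with this contrast in view, nothing is read from these values and no test of the members is given. In the fit across the whole array, 155 probe sets (0.344%) were higher and 239 (0.531%) lower at an adjusted p of 0.05 by limma.

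The members were then set beside lists of genes of related functions, which were also chosen with earlier results of these data known. The counts and p-values of the lists, beside those of all genes, are therefore not independent of that choice. Of 85 genes listed 82 were measured, each taken at its brightest probe set. Of these 2 rose (0.418% of all genes were higher) and 0 fell (0.671% were lower) by limma with Benjamini-Hochberg adjustment over all probe sets. At an unadjusted p below 0.05, 29 were higher and 6 lower, where 13.5% and 6.23% of all genes were. The replicate number was also used as a block, a pairing read from these same arrays and not stated by the labels. With this block 17 rose, where 4.82% of all genes did, and 0 fell, where 2.52% did. EBF arrays were all above control arrays for 35 of the 82 (17.2% of all genes) and all below for 5 (8.06%). The median difference of the 82 was 0.107, against 0.030 for all genes. Without EBF 3, 17 rose and Sesn3, a relative of Sesn2, fell, where 3045 of all 45037 probe sets were higher and 1242 lower. Without any 1 of the other arrays 0 were called. Leaving out EBF 3 and control 2 together, 2 rose and 2 fell, where 1386 of all 45037 probe sets were higher and 501 lower.

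Amino acid synthesis genes held the clearer of the 2 increases. Shmt2, the mitochondrial serine hydroxymethyltransferase, read 7636, 7987 and 6884 in EBF arrays, against 5194, 4590 and 5017 in control arrays, higher by 0.60 ± 0.09 on the log2 scale (SE; limma adjusted p = 0.0209). All 4 Shmt2 probe sets were higher in every EBF array, by 0.46 to 0.75, and 1434204_x_at passed as well (0.0221). The call was lost without EBF 1, EBF 2 or any 1 control array, with limma adjusted p of 0.0712 to 0.119. Of the 9 measured genes of this list 1 rose, 0 fell and 8 did not pass. With the block 4 rose (4.82% of all genes did), and 6 had EBF arrays all above control arrays (17.2% of all genes did). The list's median was 0.267.

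Genes for tRNA charging and for amino acid uptake mostly had differences above 0 as well. Gars, the glycyl-tRNA synthetase, read 7068, 7055 and 6851 in EBF arrays, against 5367, 5153 and 5537 in controls (log2 0.38 ± 0.07, limma adjusted p = 0.0473). It was the 1 of 13 tRNA synthetase and export genes to rise (6 with the block, where 4.82% of all genes did). All 13 had differences above 0, as did 10556 of all 18193 genes. In 12 the EBF arrays were all above the control arrays (17.2% of all genes), and the median was 0.269. The Gars call was lost without any 1 array other than EBF 3 (limma adjusted p 0.133 to 0.202), without EBF 3 and control 2 together (0.0539), and with quantile normalization, equal trimmed means or the lower pseudocount (0.0611 to 0.0673). Of 9 amino acid transporters 0 passed at the brightest probe set and 4 rose with the block (4.82% of all genes did). With an unadjusted limma p below 0.05, 6 were higher (13.5% of all genes). EBF arrays were all above control arrays for 8 (17.2% of all genes). Those with the smallest p were Slc7a5, a leucine transporter chain (log2 0.48 ± 0.09, limma adjusted p = 0.0554, blocked 0.00775), and Slc38a2, a glutamine and alanine transporter (0.35 ± 0.07, 0.0808, blocked 0.0323). At 1429593_at and 1429594_at the Slc38a2 groups overlapped, with 0.20 ± 0.14 (blocked limma adjusted p = 0.167) and 0.05 ± 0.08 (0.752). At a dimmer probe set, 1456003_a_at, the transporter Slc1a4 did pass (0.56 ± 0.09, adjusted p = 0.0408 by limma). The transporters' median was 0.286.

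**Figure D5:**
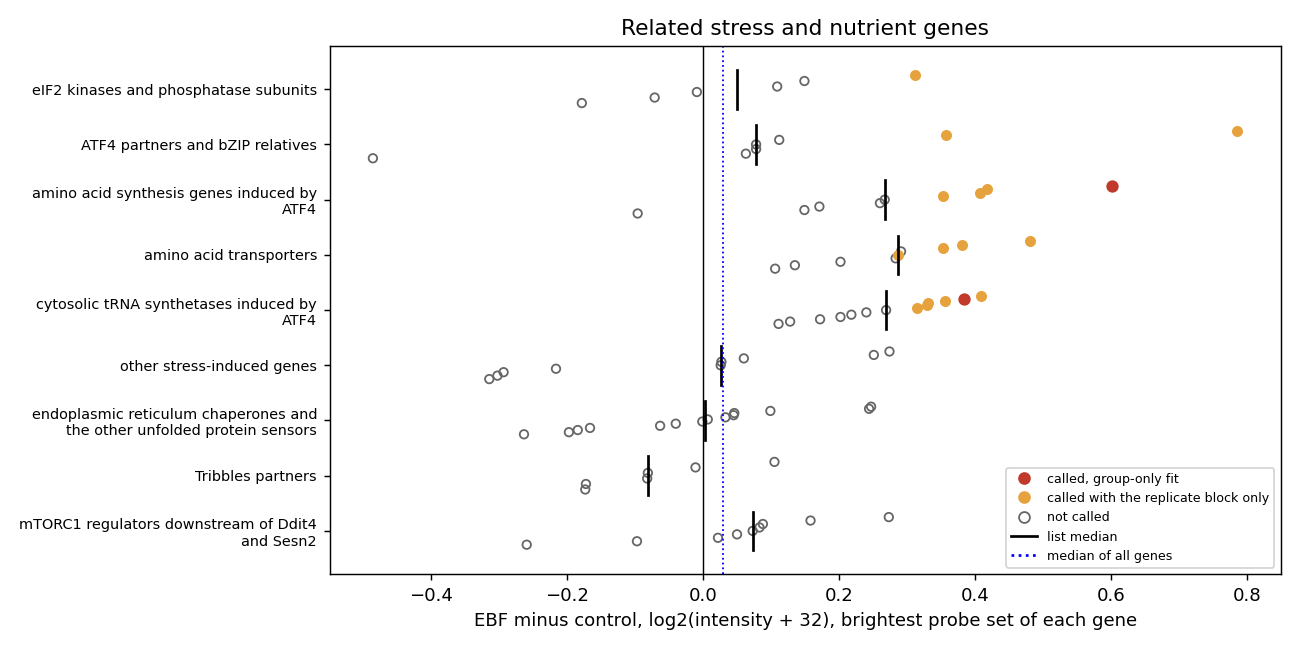
EBF minus control, log2(intensity + 32), for 82 related genes at their brightest probe set, by list. Red points passed the fit with group alone, orange points with the replicate block only, open points neither; black bars are list medians (0.267, 0.286 and 0.269 for the 3 lists on amino acids and tRNA) and the dotted line is the median of all genes, 0.030.

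The bZIP relatives of ATF4 included the largest difference of the related genes. Atf5, a factor translated under stress by the same mechanism as ATF4, read 1751, 1235 and 1094 in EBF arrays, against 755, 745 and 782 in controls (log2 0.79 ± 0.15), with an adjusted p of 0.0640 by limma and 0.00766 with the block. Of the 7 genes of this list 0 passed by limma and 2 had an unadjusted p below 0.05, Atf5 and Batf3 (0.36 ± 0.12, adjusted p = 0.183, blocked 0.0399). Both were higher, as 13.5% of all genes were at that unadjusted level. Jdp2, also in this list, was lower in every EBF array at the dimmer 1450350_a_at (-0.52 ± 0.12, limma adjusted p = 0.0906, blocked 0.021). Upstream of ATF4, the 6 measured eIF2 kinase and phosphatase genes had a median of 0.050 and 0 passed. At an unadjusted limma p below 0.05, where 13.5% of all genes were higher, 1 was higher. That was Ppp1r15b, the constitutive partner of the eIF2 phosphatase (0.31 ± 0.08, adjusted p = 0.122, blocked 0.0379). Next by p was the kinase gene Eif2ak4, the amino acid sensor GCN2 (0.11 ± 0.07, adjusted p = 0.436).

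Endoplasmic reticulum chaperones and the sensors of the other unfolded protein branches had differences centred near 0. Of 14 measured, 0 passed by limma and 0 with the block at the brightest probe set. There 1 was higher and 1 lower at an unadjusted limma p below 0.05 (13.5% and 6.23% of all genes were), and the median was 0.003. The smallest p at these probe sets belonged to Sdf2l1 (0.24 ± 0.08, limma adjusted p = 0.169) and Edem1 (-0.18 ± 0.07, 0.237). Hyou1, of the same list, did pass with the block at the dimmer 1423290_at, with overlapping groups (0.43 ± 0.17, limma adjusted p = 0.233, blocked 0.0227). Whether this list differs from the amino acid lists was not tested.

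Downstream of Ddit4 and Sesn2, 0 of 9 mTORC1 regulators passed by limma or with the block at the brightest probe set (median 0.073). There 1 was higher and 1 lower at an unadjusted limma p below 0.05 (13.5% and 6.23% of all genes were). These were Mtor, the kinase itself (0.27 ± 0.09, adjusted p = 0.190), and Mlst8, a subunit of its complex (-0.26 ± 0.11, 0.250). Rptor, of the same list, was lower and passed with the block at the dimmer 1458472_at (-0.37 ± 0.10, limma adjusted p = 0.125, blocked 0.0264). Of 6 Tribbles partners 0 passed by limma or with the block at the brightest probe set (median -0.081). The smallest p were those of the kinase genes Akt2 (-0.17 ± 0.06, limma adjusted p = 0.216) and Map2k1 (-0.17 ± 0.07, 0.245), the 2 with an unadjusted p below 0.05. Both were lower, as 6.23% of all genes were at that unadjusted level. Akt2 had 0.01 ± 0.25 at 1421324_a_at and -0.08 ± 0.11 at 1455703_at, with overlapping groups. Akt1 was higher and passed with the block at the dimmer 1442759_at (0.30 ± 0.07, limma adjusted p = 0.105, blocked 0.0458). Among the 9 other stress-induced genes 0 passed in either fit at the brightest probe set. There 2 were higher and 2 lower at an unadjusted limma p below 0.05 (13.5% and 6.23% of all genes were), with a median of 0.026. Eif4ebp1, a translation repressor controlled by mTORC1, had 0.27 ± 0.07 (limma adjusted p = 0.121), and Herpud1, of endoplasmic reticulum protein disposal, had 0.25 ± 0.07 (0.134). At 1434976_x_at Eif4ebp1 did pass with the block (0.29 ± 0.07, limma adjusted p = 0.104, blocked 0.0451).

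The TGATGNAA element of the Asns, Trib3 and Chac1 windows also occurred in other stress genes. Of 87 windows found for 71 of the related genes, 14 held it, or 16.1%, beside 3.97% of all windows. It was in the windows of 5 of the 9 tRNA synthetase and export genes matched, among them Gars, Tars and Aars. The windows of the 11 chaperone and sensor genes matched held 0. For the 13 measured genes with the element, EBF arrays were all above control arrays in 8, all below in 2 (Atf3 and Akt2) and overlapping in 3, where the 82 related genes had 35 above and 5 below, and 17.2% and 8.06% of all genes were above and below. The amino acid synthesis and tRNA lists were drawn up as genes induced by ATF4, so how often they hold its element is not independent of that choice. This search was made after the intensities were known and was not tested.

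Genes with an array profile like those of the members were sought among 5302 probe sets with a mean intensity of at least 200 and a log2 range of at least 0.5. Over the 6 arrays, the profile of Asns 1433966_x_at was followed most closely by Mfsd4a (Pearson r = 0.998), Slc1a4 at 1456003_a_at (0.996), Chek1 (0.994), Psph (0.991) and Mars2 (0.991). Slc1a4, a transporter of serine, alanine and other neutral amino acids, and Psph, the last enzyme of serine synthesis, are in the related lists. This Slc1a4 probe set read 633, 694 and 714 in EBF arrays and 456, 403 and 502 in control arrays. The genes most like Atf4 1448135_at were 4930415O20Rik (0.958), Prr15 (0.957), Mfsd8 (0.954), Kcnj14 (0.946) and Dnajc27 (0.943), none of them from the related lists. These correlations describe 6 arrays that share the group difference and were the highest among many candidates.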

How the data were processed

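Per the labels, biotin-labelled cRNA from 6 microg total RNA of sorted cells was hybridised to Affymetrix arrays. The deposited intensity values, 1 per probe set and array, were used; how the authors computed and normalized them is not given in the sources used here. A rat array is named in the series' design text, but the organism label is mouse and the gene table used belongs to a mouse array. Of 45101 probe sets 64 controls were left out. Of the rest, 34945 had 1 symbol, 932 several and 9160 none. Trimmed means (2%) differed by a ratio of at most 1.03, under the limit of 5% for rescaling.

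EBF minus control was fitted on log2(intensity + 32) over all probe sets in R 4.3.3 by limma 3.58.1, using its lmFit and eBayes functions, two-sided and with no covariate, with Benjamini-Hochberg adjustment and a threshold of 0.05. The procedure was also run on simulated data whose noise was drawn independently for each probe set and array. That simulation held no effect shared by an array or by same-numbered arrays, so it does not check the procedure for such effects. The members and lists were chosen with earlier results of these data known. Related genes were named when called, otherwise the 2 with the smallest p of a list; likeness took the 5 highest correlations. Other genes named (Ppp1r15a, Atf3, Sesn3, the markers, the genes with a motif and those at another probe set) were chosen after their values were seen. Same-numbered arrays deviated together from their group means (r = 0.318, 0.255 and 0.503 for the pairs numbered 1, 2 and 3, each over 0.1), so the numbers were taken to pair the arrays, a pairing read from the data. Arrays of different number were not set beside these, so the values do not show that the likeness is particular to equal numbers. Promoter windows were searched with Python 3.11.15. The number of arrays limits the precision. Alternatives were other pseudocounts, normalizations, a filter on dim probe sets, the replicate block and leaving out arrays.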

Additional observations from a re-analysis of the deposited data

How the results depend on the processing

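Over all probe sets 394 passed (155 higher, 239 lower); the count was 3280 with the replicate block, 79 to 4287 with 1 array left out (the highest without EBF 3) and 1887 without EBF 3 and control 2 together. Of the 82 related genes 2 were called. The count over the 82 was 1 with the lower pseudocount, with quantile normalization and with equal trimmed means, and 6 with the higher pseudocount. It was 17 with the replicate block, 0 to 18 with 1 array left out and 4 without EBF 3 and control 2 together. Counted by probe set and not by gene, 4 of the 190 probe sets of these genes were called. The median difference of the 18 member probe sets, 0.109, was 0.065 with the higher pseudocount, 0.109 with the replicate block and 0.083 to 0.13 with 1 array left out. Differences at both Asns probe sets ranged from 0.42 to 0.86 over all alternatives, at both Trib3 probe sets from 0.31 to 0.68 and at Ddit4 from -0.60 to -0.40. The cause of these changes was not tested. Signal over background limits Atf4 1439258_at and Trib2 1459852_x_at, which lay at or below the Bacillus medians. It also limits the other Trib2 probe sets, which lay above those medians but below the brightest Bacillus probe set of every array.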
